A study of Saccharomyces cerevisiae with 12 samples.

Results

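The mRNA carried by polysomes was compared between yeast cells whose ribosomes lack the b-arm of the 25S rRNA expansion segment ES27L (ΔES27Lb) and cells with complete ribosomes (wildtype). The comparison rests on the 6 libraries that the sample titles give as polysome associated mRNA, 3 of ΔES27Lb and 3 of wildtype, of the 12 libraries in the series. The other 6 hold total mRNA of both strains and are used only where they stand beside a polysomal value. Both groups share the background yJD1045, a MATa strain in which HIS3 replaces the chromosomal rDNA (rdn1ΔΔ::HIS3) and which carries mutant alleles of ADE2, URA3, LEU2, HIS3, TRP1 and CAN1. According to the labels and the study's methods, the rRNA of these cells comes from a 2μ plasmid with the URA3 marker, pJD694, on which a TET promoter read by RNA polymerase II drives the 35S operon. Its 18S rRNA carries a point mutation for hygromycin B resistance. The 2 groups differ in the 25S sequence of that plasmid, which is complete in wildtype and lacks ES27Lb in the deletion strain. Cells were grown in YPD without added stress and harvested at an optical density of 0.8. The study's methods name hygromycin B in the medium for maintaining cells and for RNA isolation, and YPD alone for polysome gradients. The labels do not say whether the 3 replicates of a strain come from separate transformants, so a p-value measures the spread between these libraries.

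Expansion segments are stretches of rRNA that eukaryotic ribosomes carry in addition to the conserved core shared by all ribosomes. ES27L is a long, mobile helix of the large subunit that can swing to the end of the tunnel from which the growing protein leaves, where enzymes that trim and acetylate new N-termini dock. Sucrose gradients separate mRNAs loaded with several ribosomes from single ribosomes and free mRNA. The amount of an mRNA in the pooled polysomal fractions depends both on how much of it the cell holds and on how much of it is loaded with ribosomes, and the 2 cannot be told apart within the polysomal libraries.

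The depth of the 6 polysomal libraries was similar, at 16710959 to 18604853 counts, and 6269 to 6447 genes had at least 1 count. Values are given as CPM, counts relative to a library size common to all libraries. Library sizes were multiplied by factors of 0.842 to 1.27 from the TMM method, which sets the bulk of mRNAs equal between libraries. At this depth 3 counts, taken as the floor, equal 0.140 to 0.197 CPM, a limit for counting error only. Of the markers of MATa cells, the receptor gene STE2 was at 62.0 to 90.7 CPM and the pheromone gene MFA2 at 49.6 to 137 CPM in the 6 libraries. Of the MATα markers, both pheromone genes were too low to be tested, STE3 was at 0.255 to 2.04 CPM and SAG1, the α-agglutinin gene, at 15.2 to 24.6 CPM. The plasmid marker URA3 was among the most abundant mRNAs, at 13351 to 28181 CPM. TRP1, the marker of the plasmid that pJD694 displaced, was at 4799 to 10524 CPM in both strains, although that plasmid is described as replaced and the chromosomal allele as mutant. The origin of these counts was not tested. The deletion lies within rRNA and cannot be seen in counts per gene, so the strain labels were not checked against it.

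The libraries of one strain differed from each other as much as from those of the other strain. Across 5052 genes, the SD of the log2 CPM difference between a pair of libraries was between 0.368 and 0.795 for the 6 pairs within a strain, with a median of 0.514. For the 9 pairs with 1 library of each strain it was between 0.366 and 0.732, with a median of 0.493. Wildtype replicate 3 stood apart from the rest. On the first principal component, which held 56.4% of the variance, it lay at 33.3, and the other 5 libraries lay between -21.6 and 9.81. ΔES27Lb replicate 1 had the lowest share of ribosomal protein mRNAs, at 13.6% of its counts for the large and 10.3% for the small subunit, where the other libraries held 14.3% to 19.2% and 10.4% to 14.6%.

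**Figure D1:**
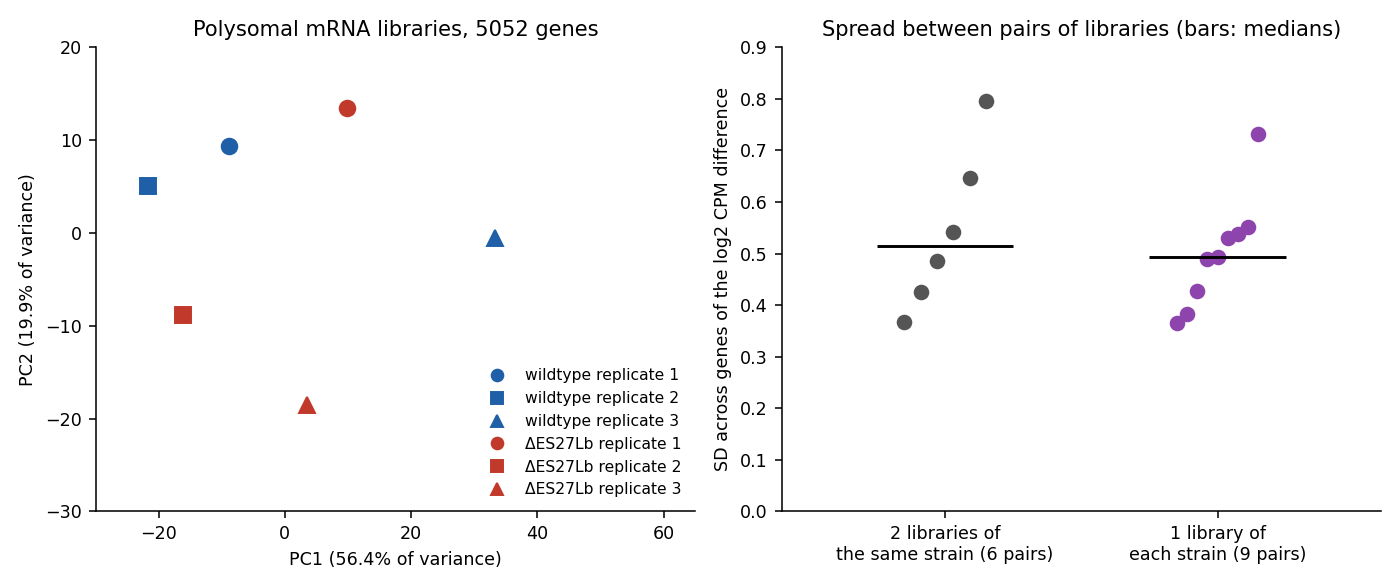
Left, the 6 polysomal libraries on the first and second principal component of log2 CPM (blue, wildtype; red, ΔES27Lb; marker shapes, replicates); the strains do not separate along the first, where wildtype replicate 3 lies at 33.3. Right, the SD across 5052 genes of the log2 CPM difference for each pair of libraries, with black bars at the medians of 0.514 within and 0.493 between strains.

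No gene passed the test between the strains. Of 5761 genes tested with edgeR's quasi-likelihood test on the 6 libraries, 0 (0%) had a Benjamini-Hochberg adjusted p of 0.05 or less, and the smallest adjusted p was 0.824. At an unadjusted p of 0.05 or less stood 102 genes, of which 33 (0.573%) were higher and 69 (1.2%) lower in ΔES27Lb. The Wald test of DESeq2 called 6 of 6733 genes (0.0891%) and had 125 at an unadjusted p of 0.05 or less. These 6 were the mannoprotein gene TIR1, the inositol synthase gene INO1, the unnamed reading frame YPR145C-A and the ribosomal protein genes RPL22B and RPL9B, all lower, and the arginine synthesis gene ARG1, which was higher. Their adjusted p in DESeq2 was 0.000203, 0.000603, 0.000749, 0.000811, 0.00417 and 0.0278, in that order. None of these 6 passed in edgeR, and the call therefore depends on the tool. Over all genes, the standard error of the log2 difference had a median of 0.249 (n = 3 per strain).

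Differences were small for most mRNAs. The log2 difference had a median of -0.01 and an SD of 0.28 across the genes tested, and 61 genes exceeded 1 in size, 6 of them higher and 55 lower in ΔES27Lb. Of the 55 lower genes, 36 had their highest value in wildtype replicate 3, and 26 remained below -1 without that library. For 166 genes (2.88%) the lowest ΔES27Lb library was above the highest wildtype library, and for 143 genes (2.48%) all ΔES27Lb libraries were below all wildtype libraries. For 3 against 3 libraries that do not differ by strain, no overlap in either direction has a chance of 0.1. Both shares together were below that, so the number of such genes is no sign of a strain difference. Genes are named below if they were among the 12 with the largest log2 difference in either direction, coded for a protein, had a mean log2 CPM of at least 3 and had no overlap between the strains. Further genes are members of gene lists or are named in the study.

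**Figure D2:**
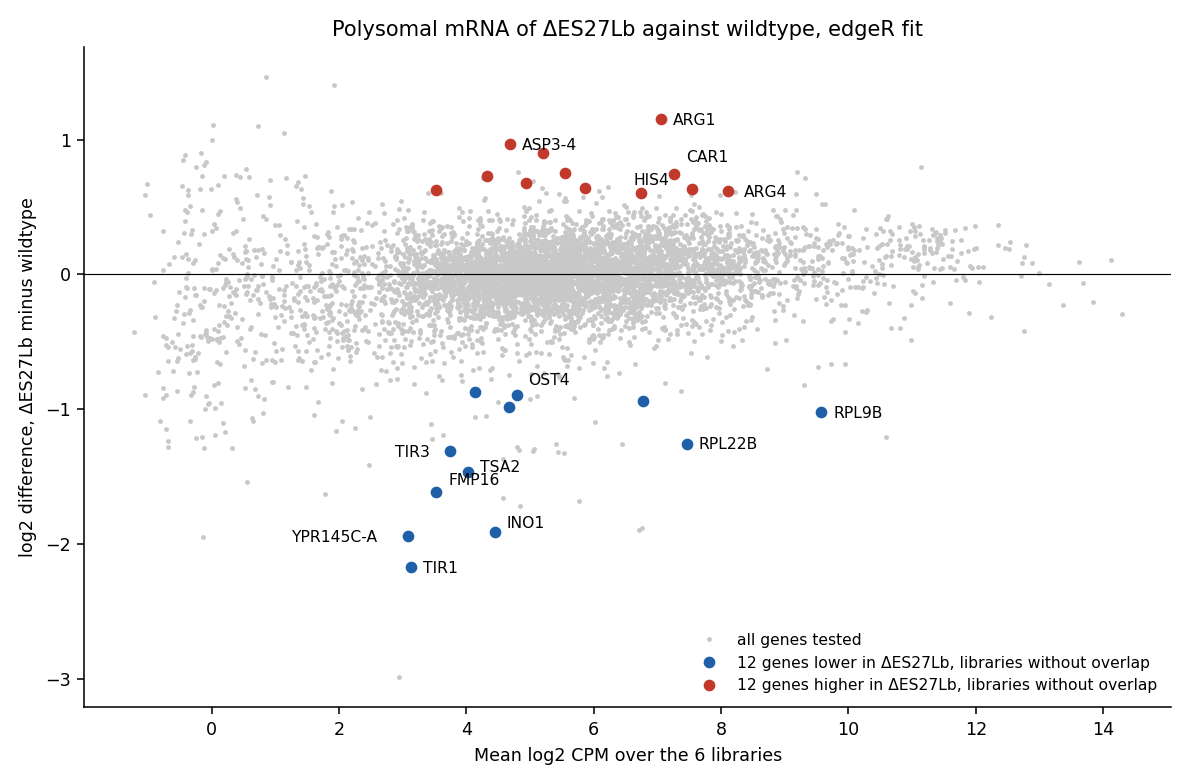
The log2 difference of ΔES27Lb minus wildtype in polysomal mRNA (vertical axis) against the mean log2 CPM of the 6 libraries (horizontal axis) for the 5761 genes tested (grey). The 12 genes with the largest difference without overlap between the strains are shown in blue (lower, down to -2.17 for TIR1) and red (higher, up to 1.15 for ARG1).

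The mRNAs of TIR1 and TIR3, cell wall mannoproteins of the TIR family, were among the 12 lower ones. TIR1, which codes for a wall protein made in the cold and without oxygen, was at 16.3, 29.3 and 11.9 CPM in wildtype replicates 1 to 3 and at 4.84, 3.15 and 4.72 CPM in ΔES27Lb. Its log2 difference of -2.17 ± 0.36 (SE, n = 3 per strain) was the largest among the 12 lower genes. TIR3, a wall protein of the same family, was at 21.8, 26.4 and 18.0 CPM in wildtype and at 6.84, 4.99 and 14.9 CPM in ΔES27Lb, a log2 difference of -1.31 ± 0.38. All ΔES27Lb libraries were below all wildtype libraries for both genes, and leaving out wildtype replicate 3 gave -2.43 and -1.44. The family did not move as one. Of 7 TIR and DAN genes measured, 3 were lower without overlap (2.48% over all genes tested), TIR1, TIR3 and the weakly expressed PAU24 (0.777 to 1.57 CPM in wildtype and 0.326 to 0.766 in ΔES27Lb). TIR2 and TIR4 overlapped between the strains, with log2 differences of 0.13 and 0.39. The other 4 of the 7 had positive differences, and the list's median was 0.01, beside -0.01 over all genes tested, and -0.27 without ΔES27Lb replicate 1. Among 24 other cell wall protein genes none was without overlap, and their median was -0.13.

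INO1, which codes for the enzyme that makes inositol 3-phosphate, the first step of inositol synthesis, was at 28.8, 36.9 and 66.4 CPM in wildtype and at 12.5, 8.80 and 13.9 CPM in ΔES27Lb. The lowest wildtype value was above the highest of ΔES27Lb, and the log2 difference was -1.91 ± 0.33, or -1.49 without wildtype replicate 3. The genes that control INO1 did not follow it. INO2 and INO4, whose proteins together activate it, had log2 differences of 0.40 and 0.31, OPI1, its repressor, had 0.30, and all of them overlapped between the strains. Over 21 genes of inositol and phospholipid synthesis the median was 0.06, and INO1 was the single member without overlap (4.76%, beside 2.48% lower over all genes tested). YPR145C-A, an open reading frame with no gene name in the annotation, was at 15.4, 13.7 and 22.5 CPM in wildtype and at 6.65, 3.88 and 2.74 CPM in ΔES27Lb, a log2 difference of -1.94 ± 0.36.

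RPL22B and RPL9B, each the second gene copy of a protein of the large ribosomal subunit, were lower in ΔES27Lb polysomes. RPL22B was at 293, 293 and 237 CPM in wildtype and at 97.8, 106 and 141 CPM in ΔES27Lb, a log2 difference of -1.26 ± 0.24. RPL9B was at 1260.4, 1045 and 972 CPM in wildtype and at 551, 487 and 573 CPM in ΔES27Lb, a log2 difference of -1.02 ± 0.25. Both stayed below all wildtype libraries in each ΔES27Lb library, and without wildtype replicate 3 the differences were -1.35 and -1.10. Their partner copies gave another picture. RPL22A was at 1824, 1727 and 1326 CPM in wildtype and at 939, 2442 and 1966 CPM in ΔES27Lb, and RPL9A at 2037, 2586 and 1474 CPM against 1459, 2716 and 3656 CPM. Both partners overlapped between the strains, with log2 differences of 0.13 ± 0.38 for RPL22A and 0.36 ± 0.40 for RPL9A. The protein Rpl22 is known to bind the intron of RPL22B, but counts per gene do not show whether reads were spliced.

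**Figure D3:**
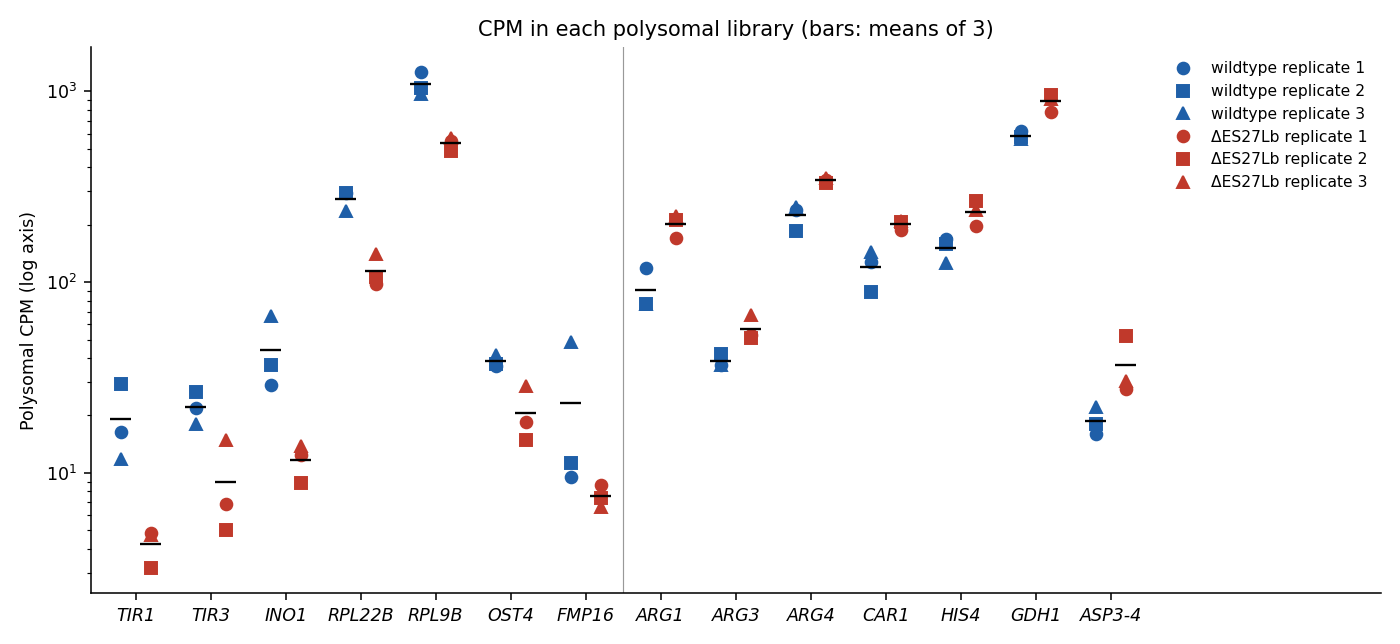
CPM on a log axis of 14 mRNAs in each polysomal library (blue, wildtype; red, ΔES27Lb; black bars, means of 3 libraries; marker shapes, replicates). Left of the line are 7 lower mRNAs, among which the wildtype mean of FMP16 is raised by replicate 3 (48.8 CPM); right of it are 7 higher mRNAs of arginine and amino acid metabolism and asparagine breakdown.

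Most budding yeast ribosomal proteins are coded by a pair of genes whose products are the same or nearly the same, and the share of a pair's reads counted on its B gene does not depend on the scaling between libraries. For 12 of 57 pairs (21.1%) these shares did not overlap between the strains, 5 with a higher and 7 with a lower share of the B gene in ΔES27Lb. Of them, 8 pairs belong to the large and 4 to the small subunit, where 33 and 24 pairs were measured. For 3 against 3 libraries that do not differ by strain, no overlap in either direction has a chance of 0.1. Over all genes tested, CPM was higher without overlap for 2.88% and lower for 2.48%. In total mRNA the shares of 15 of the 57 pairs did not overlap. All pairs were measured in the same libraries and are not independent. The largest difference was that of RPL9. RPL9B held 38.2%, 28.8% and 39.7% of the pair's reads in wildtype and 27.4%, 15.2% and 13.5% in ΔES27Lb. RPL22B held 13.8%, 14.5% and 15.1% in wildtype and 9.43%, 4.17% and 6.68% in ΔES27Lb. RPL7B held 18.9%, 16.4% and 15.7% against 13.3%, 11.0% and 8.86%. In these pairs the share of the B gene was lower in every ΔES27Lb library. The opposite order was seen for RPL8B, with 76.2%, 81.3% and 81.7% in wildtype and 84.6%, 88.1% and 91.8% in ΔES27Lb. RPS9B likewise held 87.1%, 88.1% and 88.4% in wildtype and 91.6%, 92.8% and 94.0% in ΔES27Lb. Its partner RPS9A was the single small-subunit gene without overlap (log2 difference of -0.71 ± 0.28).

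The remaining non-overlapping pairs differed by less. The mean share of the B gene in ΔES27Lb minus that in wildtype lay between -3.47 and -0.785 percentage points for RPL36, RPL18, RPS22 and RPL6 and between 2.96 and 3.30 for RPS23, RPS28 and RPL42. Of all 57 pairs, 33 stayed within 2 percentage points between the strain means, and the median size of the difference was 1.33. In total mRNA, 9 of the 12 pairs were without overlap in the same direction as in polysomes, and RPL22, RPL42 and RPS28 overlapped. For RPL22B the share in total mRNA was 13.8%, 20.2% and 21.9% in wildtype and 19.7%, 18.1% and 7.22% in ΔES27Lb. Copies of a pair can be nearly identical in sequence, and how the authors counted reads that match both copies is not given in the sources used here, so the shares of such pairs are uncertain.

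**Figure D4:**
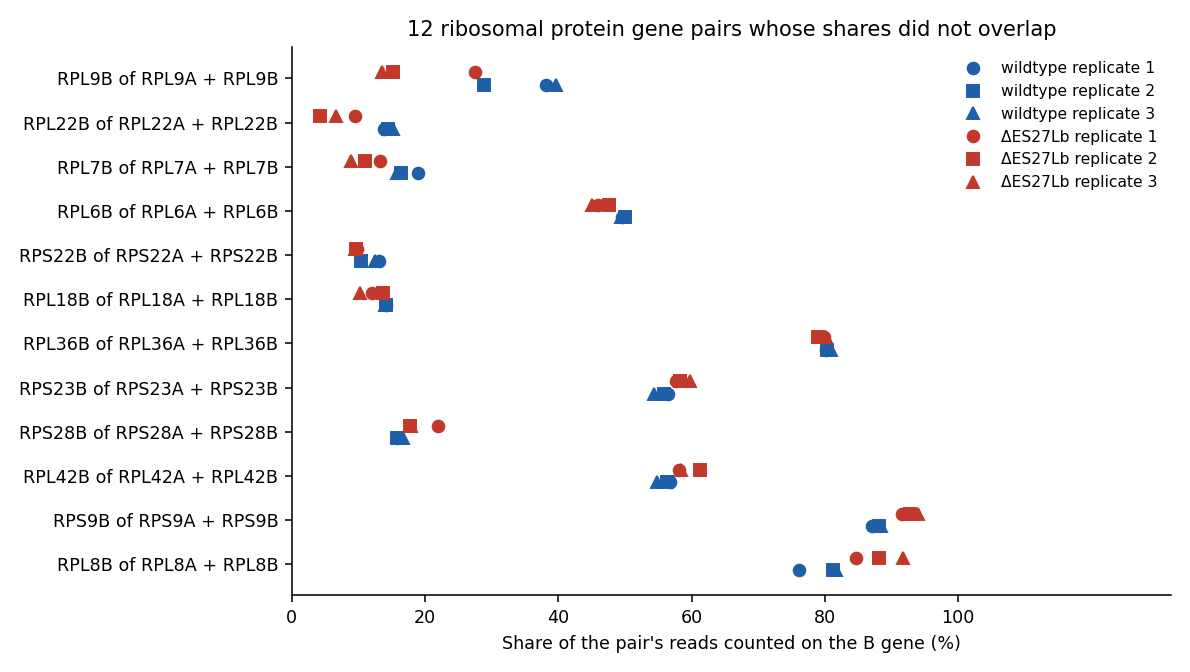
Share of the reads of a ribosomal protein gene pair that were counted on its B gene (horizontal axis, %) in each polysomal library (blue, wildtype; red, ΔES27Lb; marker shapes, replicates). Shown are the 12 of 57 pairs whose shares did not overlap between the strains, from RPL9, where the B gene held 28.8% to 39.7% in wildtype and 13.5% to 27.4% in ΔES27Lb, to RPL8.

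Of 10 mRNAs of arginine synthesis, 3 were higher in ΔES27Lb without overlap, beside 2.88% of all genes tested. ARG1, which codes for argininosuccinate synthetase, was at 119, 77.0 and 76.5 CPM in wildtype and at 171, 212 and 222 CPM in ΔES27Lb, a log2 difference of 1.15 ± 0.26. ARG4, whose product argininosuccinate lyase carries out the next and last step, was at 239, 184 and 248 CPM in wildtype and at 343, 332 and 353 CPM in ΔES27Lb, a difference of 0.62 ± 0.22. ARG3, for ornithine carbamoyltransferase, which makes the citrulline that ARG1's product uses, was at 36.9, 41.9 and 36.8 CPM against 52.7, 51.2 and 67.1 CPM, a difference of 0.56 ± 0.19. For each of the 3 genes the lowest ΔES27Lb library was above the highest wildtype library. They act in consecutive steps from ornithine to arginine. The other 7 genes of the pathway overlapped between the strains.

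All 10 arginine synthesis genes measured had a positive log2 difference, between 0.19 and 1.15 with a median of 0.31. At an unadjusted p of 0.05 or less stood 3 of them, which 0.573% of all genes tested did with a higher level. These are the same ARG1, ARG3 and ARG4 that were without overlap, so this is no second observation. The gene lists, this one included, were written with earlier results of these data known. Summed over the 10 genes, polysomal CPM was 1282, 1084 and 888 in wildtype and 1429, 1552 and 1535 in ΔES27Lb, so the sums did not overlap. As a share of raw counts, the nearest values were 0.1286% in wildtype replicate 1 and 0.1293% in ΔES27Lb replicate 3. Wildtype replicate 3 had the lowest sum, and without it the median difference was 0.14, whereas without wildtype replicate 1 it was 0.50. CPA1, for the glutaminase subunit of the enzyme that supplies carbamoyl phosphate to the pathway, had a difference of 0.32 and overlapped. YOR302W, the small reading frame in the leader of the CPA1 mRNA whose peptide represses CPA1 when arginine is plentiful, was at 8.21, 10.4 and 9.22 CPM in wildtype and at 13.4, 17.9 and 11.7 CPM in ΔES27Lb. Its log2 difference was 0.63 ± 0.24 without overlap, although it lies on the same transcript as CPA1. CAR1, which codes for arginase, the enzyme that degrades arginine, was higher as well, at 128, 88.3 and 143 CPM in wildtype and at 187, 207 and 209 CPM in ΔES27Lb (0.75 ± 0.24). CAR2, of the following step of breakdown, overlapped (-0.32 ± 0.51).

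Other amino acid synthesis genes tended to the same side. Of 47 measured, 39 had a positive log2 difference, 8 (17.0%) were higher without overlap and none was lower without overlap, with a median of 0.24. Over all genes tested 2.88% were higher and 2.48% lower without overlap. Without wildtype replicate 3, in which this list was lowest (-0.43 relative to the mean of the 6 libraries), the median was 0.10, and over the other libraries left out in turn it lay between 0.16 and 0.38. HIS4, which codes for an enzyme of several steps of histidine synthesis, was at 168, 159 and 126 CPM in wildtype and at 197, 266 and 239 CPM in ΔES27Lb (0.63 ± 0.23). HIS5, of the same pathway, was at 153, 153 and 151 CPM against 181, 265 and 240.2 CPM (0.59 ± 0.23). GDH1, the glutamate dehydrogenase that takes up ammonium, was at 622, 575 and 563 CPM against 779, 962 and 917 CPM (0.59 ± 0.24). All ΔES27Lb libraries of these 3 genes were above all wildtype libraries. ASN1, SER1 and TRP4, for the synthesis of asparagine, serine and tryptophan, were also without overlap, with differences of 0.52, 0.47 and 0.49. The mRNA of GCN4, the activator of amino acid synthesis genes, was at 783 to 1304 CPM in wildtype and at 697 to 1041 CPM in ΔES27Lb, a difference of -0.23 ± 0.29. Genes for methionine and sulfate assimilation (median -0.01, 19 genes) and amino acid permeases (0.02, 18 genes) had no member without overlap.

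Further mRNAs among the 12 higher ones came from several functions. ASP3-3 and ASP3-4, copies of the gene for the asparaginase of the cell wall, were at 33.5, 35.4 and 40.9 CPM and at 16.0, 18.0 and 22.2 CPM in wildtype. In ΔES27Lb they were at 44.1, 77.5 and 63.2 CPM and at 27.4, 52.4 and 30.4 CPM, with differences of 0.75 ± 0.24 and 0.97 ± 0.28. The copies are nearly identical, so reads may have been assigned to one or the other, and they do not count as independent genes. The remaining 5 were ADH5 for an alcohol dehydrogenase (0.73 ± 0.25), ATG41 for an autophagy protein (0.90 ± 0.29), DIG2 for an inhibitor of the mating transcription factor Ste12 (0.68 ± 0.22), ASK1 for a kinetochore subunit (0.64 ± 0.23) and CBF1 for a transcription factor of centromeres and methionine genes (0.60 ± 0.23). For ATG41 the margin was narrow, with a highest wildtype value of 38.4 CPM and a lowest ΔES27Lb value of 39.0 CPM.

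Several of the 12 lower mRNAs owed their place to 1 wildtype library. FMP16, for a mitochondrial protein, was at 9.49, 11.3 and 48.8 CPM in wildtype and at 8.65, 7.36 and 6.64 CPM in ΔES27Lb (-1.62 ± 0.58). TSA2, for a peroxiredoxin made under stress, was at 19.7, 13.7 and 55.5 CPM against 12.6, 8.74 and 10.9 CPM (-1.46 ± 0.47). GTT1, for a glutathione transferase, was at 129.6, 95.2 and 254 CPM against 91.2, 69.6 and 88.8 CPM (-0.94 ± 0.36). In each of them wildtype replicate 3 was at least as far above the other wildtype libraries as those were above ΔES27Lb. Without it the log2 differences were -0.46, -0.64 and -0.44, and those of GND2, for a phosphogluconate dehydrogenase, and YGR201C went from -0.87 to -0.28 and from -0.99 to -0.64. OST4, which codes for a very small subunit of the oligosaccharyltransferase that glycosylates proteins in the ER, did not depend on that library. It was at 36.4, 37.4 and 41.3 CPM in wildtype and at 18.5, 14.8 and 28.6 CPM in ΔES27Lb, a difference of -0.90 ± 0.25 with the library and -0.84 without. Over 20 genes of ER membrane complexes the median was 0.01, with OST4 as the single member without overlap (5%, beside 2.48% lower over all genes tested).

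General stress mRNAs showed how far wildtype replicate 3 stood from the rest. Of 24 such genes, 23 had a negative log2 difference, with a median of -0.50, yet none was without overlap. The list's median, relative to the mean of the 6 libraries, was 1.70 in wildtype replicate 3, -0.37 and -1.05 in wildtype replicates 1 and 2, and 0.28, -0.81 and 0.24 in ΔES27Lb. Without wildtype replicate 3 the median difference turned to 0.71. HSP12, for a membrane-associated stress protein, was at 1483, 540.5 and 7115 CPM in wildtype and at 1492, 1239.6 and 1234 CPM in ΔES27Lb, and its difference went from -1.20 to 0.39 without that library. DDR2, also a stress gene, was at 116, 52.2 and 640.0 CPM in wildtype and at 93.6, 75.8 and 47.6 CPM in ΔES27Lb, with a difference of -1.90 ± 0.79 that was -0.22 without that library. Cytosolic heat shock chaperones followed the same order, with a median difference of -0.32 over 18 genes that became 0.69 without wildtype replicate 3. HSP26, for a small heat shock protein, was at 162, 78.5 and 513 CPM in wildtype and at 107, 51.5 and 45.8 CPM in ΔES27Lb, and kept its sign without the library (-1.88 ± 0.64 with it and -0.82 without).

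Ribosome assembly genes showed the mirror image. They were lowest in wildtype replicate 3 (-1.04 relative to the mean) and highest in wildtype replicate 2 (0.61), with 0.35 in wildtype replicate 1 and -0.22, 0.39 and -0.08 in ΔES27Lb. None of 99 genes was without overlap, and the median difference of -0.08 became -0.46 when wildtype replicate 3 was left out and 0.23 when wildtype replicate 2 was. Ribosomal protein mRNAs were lowest in ΔES27Lb replicate 1, at -0.66 for the large and -0.61 for the small subunit, and highest in ΔES27Lb replicate 3, at 0.42 and 0.46. The wildtype libraries lay between -0.34 and 0.18. Of 81 large-subunit genes 62 and of 57 small-subunit genes 44 had a positive difference, with medians of 0.14 and 0.15. These medians became 0.43 and 0.38 without ΔES27Lb replicate 1, 0.02 and 0.00 without wildtype replicate 3, and -0.04 and -0.09 without ΔES27Lb replicate 3. The spread among ΔES27Lb libraries was thus wider than the difference between the strains.

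**Figure D5:**
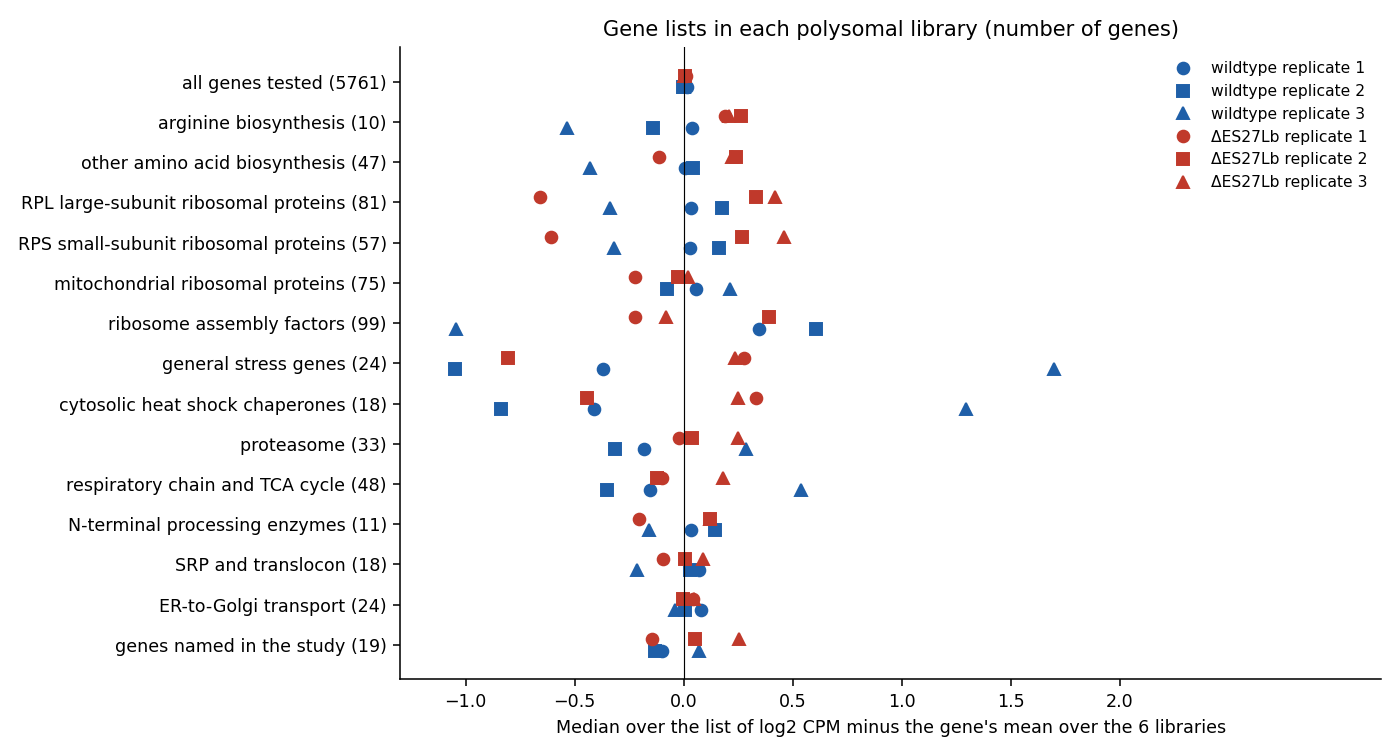
For each gene list (number of genes in parentheses), the median over its genes of log2 CPM minus the gene's mean over the 6 libraries (horizontal axis), in each polysomal library (blue, wildtype; red, ΔES27Lb; marker shapes, replicates). Wildtype replicate 3 is at 1.70 for general stress genes and at -1.04 for ribosome assembly factors, ΔES27Lb replicate 1 is lowest for ribosomal proteins, and the 3 ΔES27Lb libraries lie above the 3 wildtype libraries for arginine biosynthesis.

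Mitochondrial ribosomal protein mRNAs tended to be lower in ΔES27Lb polysomes. Of 75 genes 65 had a negative log2 difference, 8 (10.7%) were lower without overlap and none was higher without overlap, with a median of -0.14. Over all genes tested 2951 of 5761 had a negative difference and 2.48% were lower without overlap. Without wildtype replicate 3, in which the list was highest (0.21), the median was -0.06, and without ΔES27Lb replicate 1 it was -0.07. NAM9, for a protein of the small mitochondrial subunit, was at 80.2, 94.5 and 87.2 CPM in wildtype and at 67.8, 61.3 and 63.1 CPM in ΔES27Lb (-0.45 ± 0.18). MRPL31, of the large mitochondrial subunit, was at 107, 97.1 and 139 CPM against 70.6, 80.03 and 88.0 CPM (-0.52 ± 0.22). ATP15, for the epsilon subunit of the mitochondrial ATP synthase, was at 189, 135 and 239 CPM against 110, 83.5 and 128 CPM (-0.81 ± 0.28). The 3 genes kept all ΔES27Lb libraries below wildtype. The 48 genes of the respiratory chain and TCA cycle had a median of -0.06, which turned to 0.26 without wildtype replicate 3. Proteasome genes leaned the other way, with 28 of 33 above 0 and a median of 0.14 that ranged from 0.02 without wildtype replicate 2 to 0.35 without wildtype replicate 3. RPT2, for an ATPase of the proteasome's cap, was the single member without overlap (0.45 ± 0.24). That is 3.03% of the list, beside 2.88% higher without overlap over all genes tested.

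The genes for the enzymes that work at the exit of the ribosomal tunnel did not differ beyond the spread between libraries. Over 11 genes of N-terminal processing the median log2 difference was 0.04, and none was without overlap. MAP1, for the main methionine aminopeptidase, was at 263, 289 and 191 CPM in wildtype and at 216, 301 and 344 CPM in ΔES27Lb (0.21 ± 0.27). NAT1, for the subunit of the acetyltransferase NatA that anchors it to the ribosome, was at 89.5, 117 and 72.9 CPM against 73.2, 69.8 and 80.5 CPM (-0.32 ± 0.22). ARD1, for the catalytic subunit of NatA, had 0.23 ± 0.22. MAP2, NAT3 and MDM20, for the second aminopeptidase and the subunits of NatB, lay at 0.05, 0.04 and 0.01. These differences were smaller than 2 standard errors, which does not show that the levels were equal. Ribosome-bound chaperones (7 genes, median 0.10), ER chaperones (19 genes, -0.05) and mitochondrial chaperones with prohibitins (14 genes, -0.05) were likewise near the median of all genes. Signal recognition particle and translocon genes (18 genes) had a median of 0.06, with 1 member (5.56%) lower without overlap, the translocon subunit SEC72 (-0.25 ± 0.20). ER-to-Golgi transport genes (24 genes) had a median of 0.00. Without overlap, 2 (8.33%) were higher, among them SED5, the Golgi syntaxin (0.40 ± 0.20). EMP24, a cargo receptor of transport vesicles, was the 1 (4.17%) lower without overlap (-0.26 ± 0.22). Over all genes tested 2.88% were higher and 2.48% lower without overlap.

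Of 19 genes that the study names, 13 had a positive log2 difference, with a median of 0.21. Higher without overlap was 1 of them (5.26%), beside 2.88% of all genes tested. Part of this list was named by the study from these samples. Other members were named from protein data, from a splicing test (HAC1) or as reference genes (GCN4, ACT1 and TAF10). The list is therefore no independent evidence of a direction. TLG2, for a syntaxin of endosomes and the Golgi, was at 42.8, 41.8 and 51.1 CPM in wildtype and at 57.1, 52.6 and 58.8 CPM in ΔES27Lb (0.31 ± 0.18, unadjusted p of 0.115 in edgeR's test). SEC65, for a subunit of the signal recognition particle, was at 169, 170.5 and 162 CPM against 154, 207 and 296 CPM (0.39 ± 0.27). SHP1, a cofactor of the segregase Cdc48, was at 150.0, 133 and 277 CPM against 231, 199 and 333 CPM (0.45 ± 0.34). Both overlapped, as did SCD6 and SBP1, RNA-binding proteins that repress translation (0.41 ± 0.27 and 0.35 ± 0.34), and END3, an endocytosis protein (0.27 ± 0.26). By its ratio of polysomal to total reads, the study gave SCD6 as underrepresented in mutant polysomes. It gave SEC65, END3, SBP1, SHP1, TLG2, PHB1, PHB2 and HLJ1 as more efficiently translated. For SCD6, SEC65, END3, SBP1, SHP1 and TLG2 the study also measured this ratio by RT-qPCR, and reported that it bore out the sequencing. The polysomal level compared here is another measure, and by it SCD6 had a positive sign, opposite to the study's. The prohibitin genes PHB1 and PHB2 were at -0.03 ± 0.23 and -0.21 ± 0.23, and HLJ1, for a co-chaperone of the ER membrane, at 0.21 ± 0.21. Nearer to the study's ratio is the polysomal difference less that in total mRNA, from a fit to all 12 libraries. It was 0.21 ± 0.32 for PHB1, 0.10 ± 0.35 for PHB2 and 0.15 ± 0.27 for HLJ1, the study's direction but smaller than the standard errors. HAC1, whose mRNA is spliced in the unfolded protein response, was at -0.13 ± 0.25. The reference genes ACT1 and TAF10 were at -0.14 ± 0.27 and 0.35 ± 0.27.

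The length of the coding sequence (CDS) had opposite relations to polysomal level in single libraries. Across 5588 genes, Spearman's rho between CDS length and a gene's deviation from the mean of the 6 libraries was 0.52 in ΔES27Lb replicate 1 and -0.42 in ΔES27Lb replicate 3. In the other libraries it lay between -0.18 and 0.23. These opposite relations met in the strain mean, where rho of the log2 difference was -0.02, and over the 9 pairs of 1 library per strain it ranged from -0.42 to 0.52. In 5 groups of genes by CDS length, the median log2 difference was -0.04, 0.03, 0.03, -0.01 and -0.04 from the shortest to the longest. Genes are not independent replicates, and these values describe the libraries.

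Total mRNA of the same strains, with 3 libraries each, gave no call either. Of 5989 genes tested with edgeR, 0 had an adjusted p of 0.05 or less, with a smallest adjusted p of 0.921. Unadjusted p-values of 0.05 or less were found for 158 genes (2.64%). Of the 12 higher genes, 11 had the same sign in total mRNA, among them ARG1 (1.48 ± 0.30) and CAR1 (0.92). The exception was YOR302W (-0.26). Of the 12 lower genes 9 had the same sign, among them INO1 (-1.61), TIR1 (-1.24) and RPL9B (-0.75). RPL22B (0.15 in total mRNA against -1.26 in polysomes) and OST4 (0.19 against -0.90) were 2 of the 3 exceptions, with TSA2 (0.02) as the third. Genes with the same sign were not counted over all genes tested. Across 5052 genes, Pearson's r between the polysomal and the total log2 difference was 0.38. The study's methods do not say whether both pools came from the same cultures, so a shared sign is no independent evidence. Whether a strain difference itself differed between the pools was tested with an interaction term in a fit to all 12 libraries. Of 6003 genes edgeR called 0, with a smallest adjusted p of 0.9997. Unadjusted p-values of 0.05 or less were found for 46 genes (0.766%), fewer than chance gives, which included RPL22B (0.00779) and OST4 (0.0346). Both were named for their polysomal difference, which is part of the interaction term, so their small p-values are no separate evidence. In total mRNA OST4 was at 33.4, 80.2 and 86.8 CPM in wildtype and at 84.8, 72.3 and 71.0 CPM in ΔES27Lb. Ribosomal protein genes had medians of 0.63 and 0.62 in total mRNA, for the large and the small subunit, beside 0.14 and 0.15 in polysomes, and rho of the log2 difference with CDS length was -0.52 in total mRNA. Single libraries were not left out in total mRNA. Whether these medians and this rho rest on 1 library was therefore not tested.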

How the data were processed

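Poly(A)-containing RNA of pooled polysomal gradient fractions was sequenced from 3 replicates of each strain. According to the paper's methods and the labels, the authors made stranded libraries, aligned reads to BY4742 with HISAT2 and counted genomic features with featureCounts. Versions, the annotation and the handling of strand and of reads with several matches are not given in the sources used here. Per the file headers and values, each deposited file holds unnormalized read counts per gene of 1 library. The libraries had similar depth. Groups came from the sample titles.

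Counts were fitted with edgeR 4.0.16 in R 4.3.3 (filterByExpr, TMM, glmQLFit and glmQLFTest) over the 6 polysomal libraries, with Benjamini-Hochberg adjustment over 5761 genes and a threshold of 0.05. The genes kept held at least 99.98% of each library's counts. The fit was limited to these libraries because an earlier fit to all 12 had given fewer small p-values for this contrast than chance gives, and the total mRNA libraries spread more (biological coefficient of variation of 0.350 against 0.275). The fit to all 12 libraries called 0 genes, with 73 at an unadjusted p of 0.05 or less. The fit to the 6 libraries likewise had fewer than chance gives, 102 (1.77%). Log2 differences are ΔES27Lb minus wildtype. Without overlap means that all libraries of one strain lay above all of the other. For 3 against 3 libraries an exact permutation test cannot give a p below 0.1, so none is given for single genes or sums. Ribosomal protein pairs needed at least 100 counts per library of either gene. Replicates of a strain differed by far more than counting error, so none was counted as a duplicate.

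Gene names and CDS lengths came from the R64 annotation of S288C, matched by systematic name for 6162 of 7126 IDs. This is not the build of the files, so no coordinates or sequences are given. The members and gene lists were chosen with earlier results of these data known. Genes named are, by rule, the DESeq2 calls with their ribosomal protein partners, up to 12 per direction with the largest log2 difference among protein-coding genes without overlap at a mean log2 CPM no lower than 3, up to 3 members per direction of a list, and the genes the study names. HSP12, ASN1, SER1, TRP4 and CPA1 and those in the other observations were added after their values were seen. The script was tested on simulated counts. Alternatives were DESeq2 1.42.0 (Wald test), its size factors, library size alone, other filters, all 12 libraries, a replicate block, an offset for CDS length (loess, span of 0.5) and leaving out each library.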

Additional observations from a re-analysis of the deposited data

How the results depend on the processing

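With edgeR, 0 genes were called under 7 of the 8 alternatives that kept all libraries, and the Wald test of DESeq2 called 6. Leaving out 1 library gave 0 to 2 calls, and the 2 calls, the zinc transporter gene ZRT1 (-1.78) and TIR1 (-2.43), came without wildtype replicate 3, at adjusted p of 0.00476 and 0.00601. The number of genes at an unadjusted p of 0.05 or less was 58 with library size alone, and 54 to 382 when 1 library was left out (382 without wildtype replicate 3, 296 without ΔES27Lb replicate 1). Of the 382, 56.0% were higher in ΔES27Lb, beside 32.4% of the 102, and without wildtype replicate 2 that share was 13.0%. The strains share replicate numbers, and r of the deviations between libraries of the same number was -0.11, 0.56 and 0.30 for numbers 1 to 3 (5052 genes). Libraries of different numbers were not compared in this way, so whether the numbers pair the libraries was not settled. With the replicate block edgeR called 0 genes, with a smallest adjusted p of 0.294 and 137 genes at an unadjusted p of 0.05 or less. The offset for CDS length gave 127 such genes, of which 44.1% were higher. DESeq2 gave log2 differences of -2.18 for TIR1, -1.91 for INO1, -1.95 for YPR145C-A, -1.25 for RPL22B, -1.02 for RPL9B and 1.15 for ARG1. The edgeR adjusted p of these 6 genes over the other alternatives was as low as 0.00601 (TIR1 without wildtype replicate 3) and otherwise above 0.05.

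Reversed signs were those of genes near 0 or with 1 library far from the rest. MAP2 was at -0.0067 with library size alone. When 1 library was left out, the log2 difference ranged from -0.079 to 0.20 for MAP2, from -0.082 to 0.11 for NAT3, from -0.18 to 0.21 for MDM20, from -0.016 to 0.62 for SBP1, from -0.16 to 0.43 for RPL22A, from -0.12 to 0.13 for PHB1 and from -0.29 to 0.061 for HAC1. The ranges of HSP12 (-1.70 to 0.39) and CAR2 (-0.72 to 0.45) ended at the value without wildtype replicate 3, and that of FIT3 (-2.61 to 0.91) at the value without wildtype replicate 1. Why DESeq2 and edgeR differ was not tested. Calls at a lower depth were not compared.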

Other observations

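The metal uptake genes ZRT1, FIT2 and FIT3 were set apart by single wildtype libraries; the genes in this paragraph were chosen after their values were seen. Over 18 iron and zinc uptake genes the median log2 difference was -0.06, and 2 were higher without overlap (2.88% over all genes tested), ENB1 for a transporter of an iron carrier (0.45 ± 0.19) and FRE3 for a reductase of iron carriers (0.22). ZRT1, the high-affinity zinc transporter gene, was at 112, 113 and 22.2 CPM in wildtype replicates 1 to 3 and at 27.1, 32.9 and 38.6 CPM in ΔES27Lb, a log2 difference of -1.33 ± 0.51. Wildtype replicate 3 lay below all ΔES27Lb libraries, and the other wildtype libraries above them. FIT3 and FIT2, for wall mannoproteins that retain iron carriers, were at 444 and 167 CPM in wildtype replicate 1, and the other 5 libraries held 26.6 to 101 CPM of FIT3 and 22.6 to 49.7 CPM of FIT2. SIP18, for a protein made under osmotic stress, had the most negative log2 difference of all genes tested (-2.99), with 5.47, 17.3 and 60.5 CPM in wildtype and 1.58, 5.52 and 3.51 CPM in ΔES27Lb, which overlapped by a narrow margin. Without wildtype replicate 3 its difference was -1.72. HES1, for a protein of the oxysterol-binding family, was lower without overlap at a low level, with 5.01, 8.21 and 4.77 CPM in wildtype and 1.49, 2.83 and 1.53 CPM in ΔES27Lb (-1.63). HIS3, which marks the deleted rDNA locus in both strains, was at 487 to 555 CPM in wildtype and at 527, 1147 and 842 CPM in ΔES27Lb (0.72 ± 0.31, or 0.42 without ΔES27Lb replicate 2).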
